A study of Rattus norvegicus with 26 samples.

Results

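The genes described here are 10 heat shock chaperone genes, namely 9 genes for cytosolic and mitochondrial protein-folding factors and the gene of the transcription factor Hsf1, measured in thoracic aorta of male spontaneously hypertensive rats, an inbred strain that develops high blood pressure. They were chosen by name, with earlier results of these data known. A probe was assigned to a gene where its RefSeq accession led to the gene's symbol. Of the 10 genes, 9 had a probe, among 15168 named genes on the array, and all 9 were among the 12240 genes tested. They were read by 16 probes. Dnajb1 had no matched probe and has no value here. Rats of the 4 groups were dosed by mouth for 4 weeks and killed at 28 days. The control rats received saline at 7.5 mL per kg (8 arrays). The other groups received Songling Xuemaikang Capsule (SXC), a multi-herb preparation, at 236.25 mg per kg (low dose, 6 arrays) or at 708.75 mg per kg (high dose, 6 arrays), or valsartan, a blocker of the angiotensin II receptor, at 21.6 mg per kg (6 arrays). All groups, the controls included, carry the hypertensive background, no normotensive strain was analysed here, and the labels give no age. Per the labels, RNA was prepared from each aorta separately and hybridised to single-colour arrays. The 6 comparisons between the groups ask how the chaperone genes differed under each treatment, between the doses and between SXC and valsartan.

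Heat shock proteins bind unfolded or partly folded proteins. HSP70 proteins (Hspa8, and the related Hspa4 and Hsph1, which act as nucleotide exchange factors for HSP70) and their J-domain partner Dnajb1 take up unfolded chains, HSP90 proteins (Hsp90aa1, Hsp90ab1) finish the folding of kinases and hormone receptors, the small heat shock protein Hspb1 holds damaged proteins and is abundant in smooth muscle, and Hspd1 with its lid Hspe1 forms the folding chamber of mitochondria. Hsf1 is the transcription factor that binds heat shock elements, inverted repeats of the letters GAA and TTC, and induces many of these genes under stress.

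The promoters of the genes were searched for heat shock element letters, and whether these letters bear on the measured levels was not tested. The RefSeq promoter table (GRCr8) holds a window of 300 bases, 250 before and 50 after the start, for 8 of the 10 genes. Hsp90aa1 and Hsf1 had no entry. A core of a pair of units, GAANNTTC or TTCNNGAA (each reads the same on both strands), was found in the windows of 6 of the 8 genes and in 15.85% of all 33469 windows. A run of 3 alternating units, which contains the core, was found in 4 of the 8 (Hsph1, Hspa8, Hspd1, Hspe1) and in 0.8% of all windows. Hspd1 and Hspe1 share the same element, described below, so both counts of genes hold it for each of them. CCAAT, on either strand, was found in 4 of 8 and in 37.49% of all windows. Stretches before the start follow, 5′ to 3′ on the gene's strand, with the cores in capitals: Hsph1 at chr12:10427233-10427367 (+), Hspa8 at chr8:50080271-50080501 (+), Hspb1 at chr12:26432373-26432460 (-), Hspd1 at chr9:64084232-64084287 (-) and Hspe1 at chr9:64084232-64084309 (+).
Hsph1: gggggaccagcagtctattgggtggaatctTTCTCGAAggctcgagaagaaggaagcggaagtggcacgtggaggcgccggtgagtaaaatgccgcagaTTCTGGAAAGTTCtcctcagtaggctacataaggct
Hspa8: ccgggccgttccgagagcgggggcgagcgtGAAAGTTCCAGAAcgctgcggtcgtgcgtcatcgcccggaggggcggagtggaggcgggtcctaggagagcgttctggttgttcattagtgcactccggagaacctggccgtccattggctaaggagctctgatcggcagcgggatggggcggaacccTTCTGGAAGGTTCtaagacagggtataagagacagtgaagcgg
Hspb1: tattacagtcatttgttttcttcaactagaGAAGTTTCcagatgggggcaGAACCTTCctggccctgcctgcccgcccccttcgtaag
Hspd1: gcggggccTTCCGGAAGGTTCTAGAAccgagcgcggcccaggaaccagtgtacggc
Hspe1: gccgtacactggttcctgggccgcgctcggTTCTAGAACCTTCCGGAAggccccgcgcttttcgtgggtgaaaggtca

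Counted from the start, with negative positions before it, the cores of Hsph1 began at -105, -36 and -31, and the nearest of Hspa8 at -55 and -50. Hspd1 and Hspe1 lie head to head, with 289 bases between their starts, and the overlapping cores of the stretches shown are the same element read on opposite strands. The element spanned positions -65 to -48 of Hspe1 and -242 to -225 of Hspd1. In the windows of Hspa4 and Hsp90ab1 these letters were not found. A match describes the letters only.

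Levels are log2 processed signals minus the array's 75th percentile, so they compare 1 probe between arrays and not 1 gene with another. A gene's value is that of its probe brightest on average, and a gene was called where limma's Benjamini-Hochberg adjusted p was under 0.05. Each of the 9 genes was well above background on all arrays, except that Hsf1 and Hsph1 missed it on 1 high-dose array (array 3) and Hsf1 on 1 valsartan array (array 1). All 6 smooth muscle markers were well above background on every array. In bulk tissue, fewer cells of a type and less RNA per cell cannot be told apart.

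Some facts of the series bear on every value below. All saline arrays were scanned on a day of their own, 82 days after the last treated array, so where a treated group differs from saline, scan day and treatment cannot be told apart. Saline, low-dose and high-dose arrays 1 and 2 were scanned at a detector gain of 353 to 354 V, and high-dose arrays 3 to 6 and all valsartan arrays at 323 to 325 V. Only the high-dose group held both gains. Where gain is used as a block below, its term thus rests on high-dose arrays 1 and 2 against 3 to 6, which also differed in slide and scan day. The share of probes well above background was 67.3% to 76.2% in saline, 70.0% to 77.0% at the low dose, 28.7% to 79.3% at the high dose and 32.4% to 56.5% under valsartan. The saline arrays 1 and 5, 2 and 6, and 3 and 7 differed over the 9 genes by a median of 0.040, 0.064 and 0.0999, against 0.16 to 1.23 for the other 25 saline pairs, so the 8 arrays may hold fewer than 8 independent samples. Markers of other cells also moved with treatment. The summed red cell markers (5 genes) spanned 7.03 to 9.16 in saline and 1.37 to 3.94 in the treated groups, and the macrophage markers (6 genes) 2.89 to 4.06 and 0.34 to 1.65. Of the 6 tested endothelial markers, 4 fell and 1 rose in each comparison with saline (medians -2.79 at the high dose, -2.49 at the low dose and -2.61 under valsartan). Tek was well above background on 8 of 8 saline, 1 of 6 low-dose, 0 of 6 high-dose and 0 of 6 valsartan arrays. It thus passed the filter only through saline, which set the direction of its difference. Cldn5 and Esam were above background on 0 of 6 valsartan arrays. Every list but smooth muscle and fibroblast held markers that missed background on some treated arrays. Of the 5 nerve and Schwann cell markers, 3 rose and 0 fell at the high dose (median 1.69), 1 rose and 0 fell at the low dose (0.0999), and 2 rose and 1 fell under valsartan (0.58). Of the 5 tested white fat markers, 4 fell in each comparison. Among 4 brown fat markers, 0 fell at the high dose, 1 at the low dose and 4 under valsartan, and 0 rose. Their medians were -0.37, -0.86 and -2.39. In the same order, 3, 2 and 3 of 5 fibroblast markers fell and 0 rose. Smooth muscle markers (6 genes) had 2, 1 and 2 falls, and skeletal muscle markers (4 tested) 3, 1 and 2, each list with 1 rise per comparison. Their part in the results was not tested.

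Against saline, Hspa4 was higher in all 3 treated groups, Hsp90aa1 was higher at both SXC doses, and Hsp90ab1 was lower at the high dose and under valsartan. Hsph1, Hspa8 and Hsf1 were lower under valsartan. Hspb1, Hspd1 and the brightest probe of Hspe1 passed in no comparison. At the high dose 2 of the 9 members rose and 1 fell, where 35.7% of the 23744 tested probes were called higher and 21.4% lower. At the low dose 2 rose and 0 fell, against 22.5% and 17.1% of all probes. Under valsartan 1 rose and 4 fell, against 33.2% and 25.2%. The median difference of the members was -0.10 at the high dose, 0.18 at the low dose and -0.30 under valsartan, and that of all probes 0.25, 0.09 and 0.19. With quantile normalization, the median of all probes was -0.23, 0.01 and -0.30, and is not to be set beside the members' medians above. The share of higher calls among all calls was then 41.7% at the high dose, against 62.5% here, and 38.1% under valsartan, against 56.8%.

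Between treated groups, 0 members rose and 2 fell from the low to the high dose (Hspa4 and Hsp90ab1), against 16.8% of probes higher and 5.41% lower. From the low dose to valsartan, 0 rose and 6 were lower under valsartan (Hsph1, Hspa8, Hspa4, Hsp90aa1, Hsp90ab1 and Hsf1), against 13.6% and 11.5%. From the high dose to valsartan, 0 rose and 1 (Hsf1) was lower under valsartan, against 0.265% and 1.1%. At an unadjusted limma p under 0.05, 0 members were higher in each of these 3 comparisons, 2, 6 and 2 were lower, and 1 member (Hsf1) was lower at the low dose than in saline. The 3 comparisons with saline share the saline arrays, and comparisons between treated groups share arrays in the same way. With detector gain or scan day as a fixed block, 0 members were called from the low to the high dose or from the low dose to valsartan. Without high-dose array 3, the array with the lowest share of probes well above background, 1 member was called from the low to the high dose and 2 from the high dose to valsartan.

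**Figure D1:**
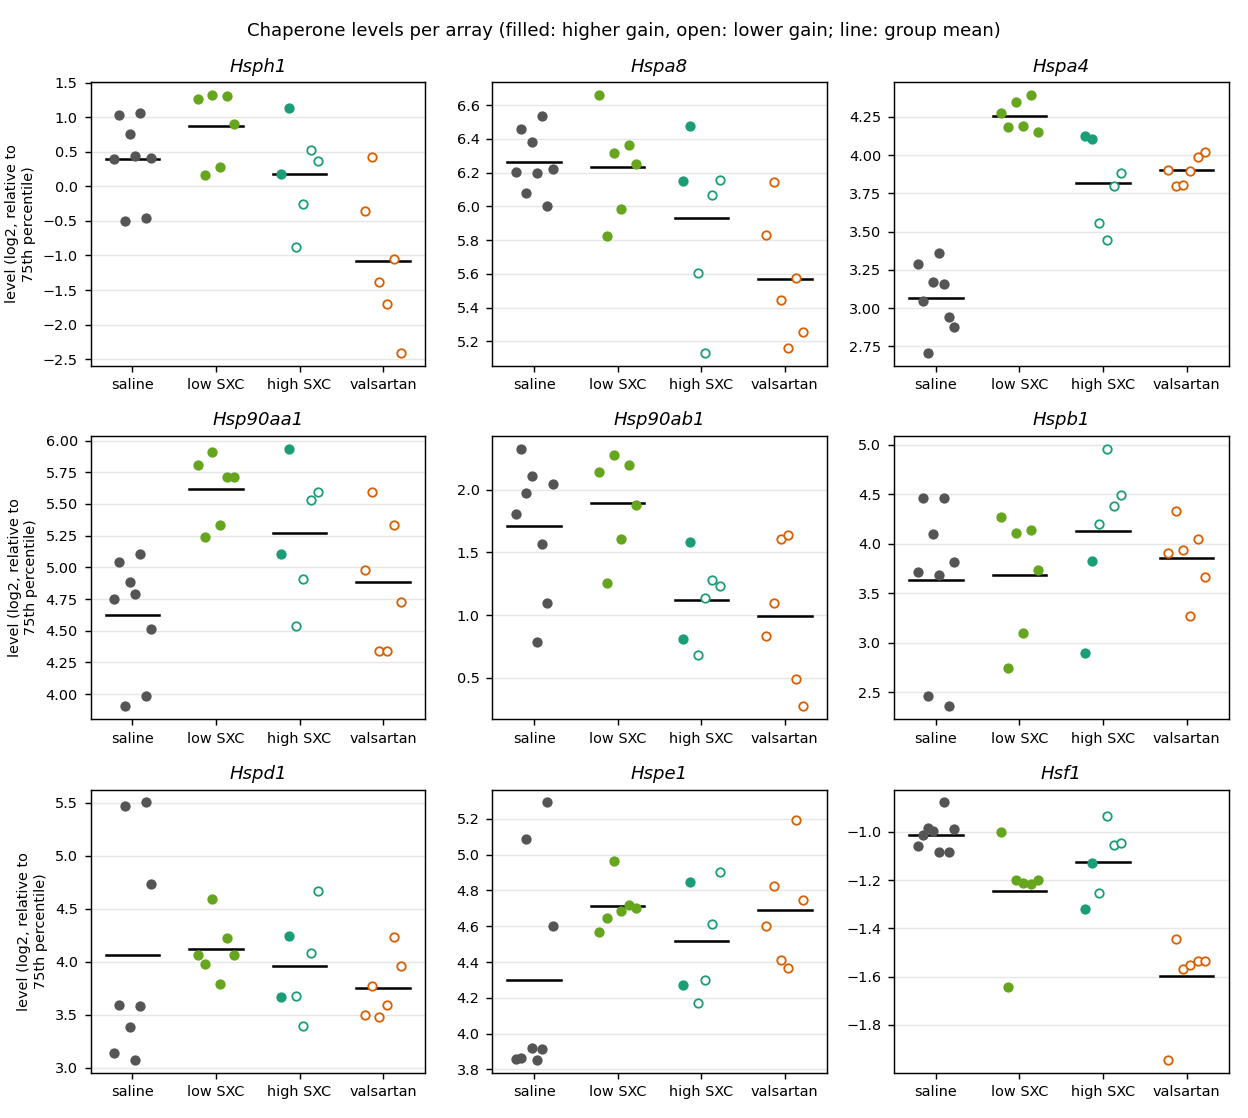
Level of each of the 9 genes (brightest probe, log2 relative to the array's 75th percentile, vertical axis) on each of the 26 arrays, by group. Filled points are arrays scanned at the higher gain, open points those at the lower gain, and lines are group means. Every saline point of Hspa4 lies below every treated point, and the valsartan points of Hsf1 lie below all saline and high-dose points.

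Hspa4, an HSP110-type exchange factor that releases nucleotide from HSP70, separated the saline arrays from every treated array. The 8 saline arrays read 3.29, 3.04, 2.71, 3.17, 3.36, 3.16, 2.94 and 2.88. The low-dose arrays read 4.28, 4.18, 4.35, 4.19, 4.39 and 4.15, the high-dose arrays 4.12, 4.11, 3.56, 3.44, 3.80 and 3.88, and the valsartan arrays 3.90, 3.80, 3.81, 3.89, 3.99 and 4.02. No treated array overlapped the saline range, and no low-dose array overlapped either other treated group. The share of all probes that separated groups in this way is not given here. Such separation is therefore not shown to be particular to Hspa4, or to the genes below whose groups did not overlap. The difference from saline was 1.19 ± 0.11 (SE; 2.28-fold) at the low dose, 0.75 ± 0.11 at the high dose and 0.83 ± 0.11 under valsartan, with limma adjusted p of 1.24e-08, 4.47e-06 and 9.71e-07. These calls held in every alternative run, with ranges of 0.97 to 1.19, 0.46 to 1.04 and 0.51 to 1.28. The order of the group means was saline, high dose, valsartan and low dose, and the high dose and valsartan did not differ beyond their spread (0.08 ± 0.12, 95% interval -0.17 to 0.33). The high dose minus the low dose was -0.44 ± 0.12 (adjusted p = 0.0117), a call that held in 10 of 17 alternatives. Within scan day 2, which holds 2 arrays of each dose, the high dose minus the low dose was -0.10. Valsartan minus the low dose was -0.35 ± 0.12 (adjusted p = 0.0334), a call that held in 8 of 13 alternatives. It turned to 0.083 with scan day as a block and 0.090 with detector gain as a block, neither passing.

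Hsph1, the other HSP110-type exchange factor of the set, was the member with the largest single difference. Its saline levels ran from -0.50 through a median of 0.42 to 1.06. The low-dose arrays read 1.26, 0.16, 1.32, 0.27, 1.30 and 0.90, and the high-dose arrays 0.18, 1.13, -0.88, -0.26, 0.53 and 0.36. The valsartan arrays read -0.36, 0.43, -1.39, -1.71, -1.05 and -2.41. Arrays 3 to 6 of valsartan lay below all saline arrays, while arrays 1 and 2 lay inside the saline range. Valsartan minus saline was -1.47 ± 0.36 (adjusted p = 0.00123, 2.77-fold lower), and valsartan minus the low dose -1.95 ± 0.39 (adjusted p = 0.000921). Arrays 1 and 2 were on slide 8, with a mean of 0.03, and arrays 3 to 6 on slide 9, with a mean of -1.64. Both slides were scanned on the same day at the same gain. With gain as a block, valsartan minus saline was -0.75 and was not called. Neither SXC dose differed from saline beyond the spread, with 0.48 ± 0.36 at the low and -0.21 ± 0.36 at the high dose.

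Hspa8, the constitutive cytosolic HSP70, was read by 4 probes. On the brightest, the saline arrays ran from 6.00 through a median of 6.22 to 6.54. The low-dose arrays read 6.66, 5.82, 6.31, 5.99, 6.37 and 6.25, the high-dose arrays 6.15, 6.48, 5.61, 5.13, 6.07 and 6.16, and the valsartan arrays 5.83, 6.14, 5.45, 5.16, 5.58 and 5.26. Under valsartan 5 of 6 arrays lay below all saline arrays, and at the high dose 2 of 6 did. Valsartan minus saline was -0.69 ± 0.18 (adjusted p = 0.00181) and valsartan minus the low dose -0.66 ± 0.19 (adjusted p = 0.0128). The call against the low dose held in 8 of 13 alternatives. The high dose minus saline was -0.33 ± 0.18 (adjusted p = 0.117).

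The other 3 probes of Hspa8 differed more. They gave -1.36, -0.98 and -0.71 at the high dose (limma adjusted p = 0.000391, 0.00178 and 0.0259) and -1.90, -1.09 and -0.82 under valsartan (adjusted p = 7.41e-06, 0.000638 and 0.00741). The last of the 3 had no usable spot on high-dose array 3, and the fit left that array out. At the low dose these probes gave -0.46, -0.38 and -0.10 and none passed. For valsartan minus the low dose they gave -1.44, -0.71 and -0.71 (adjusted p = 0.0023, 0.0536 and 0.0525). The 4 probes thus kept 1 sign at the high dose and under valsartan and differed in size, from -0.33 to -1.36 and from -0.69 to -1.90. With gain as a block, the brightest probe gave -0.12 for valsartan minus saline and was not called. As with Hsph1, the mean of slide 8 was higher than that of slide 9 under valsartan, 5.99 against 5.36.

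**Figure D2:**
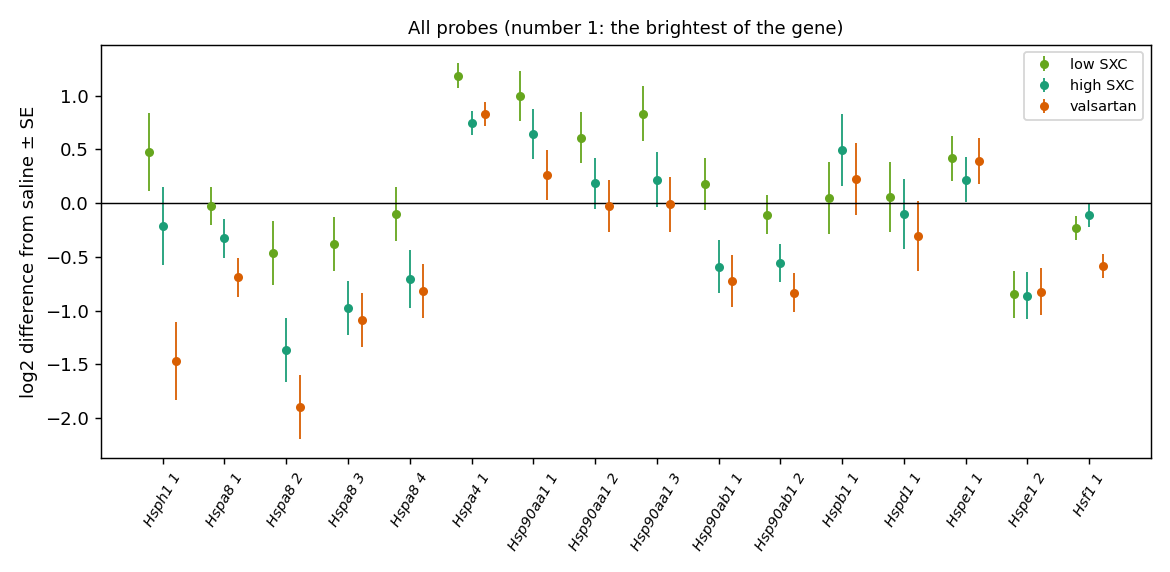
Log2 difference from saline (vertical axis, bars are SE from limma) for all 16 probes of the 9 genes in the low-dose, high-dose and valsartan groups. Number 1 is the brightest probe of a gene, and the pair of Hspe1 probes lies on opposite sides of 0.

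Hsp90aa1, the stress-inducible cytosolic HSP90, was higher under SXC. On its brightest probe the saline arrays read 4.75, 5.04, 3.90, 4.88, 4.79, 5.11, 3.98 and 4.52, and the low-dose arrays 5.81, 5.24, 5.91, 5.34, 5.71 and 5.71. The high-dose arrays read 5.10, 5.94, 4.53, 4.91, 5.53 and 5.60, and the valsartan arrays 4.98, 5.59, 4.34, 4.34, 5.34 and 4.72. All low-dose arrays lay above all saline arrays, and 3 of 6 high-dose and 2 of 6 valsartan arrays did. The low dose minus saline was 1.00 ± 0.23 (limma adjusted p = 0.00117), and the other probes gave 0.61 and 0.83 (adjusted p = 0.0438 and 0.0107). The high dose minus saline was 0.65 ± 0.23 (adjusted p = 0.0196) on the brightest probe, but 0.18 and 0.22 on the others (adjusted p = 0.524 and 0.477), and this call was lost in 6 of 17 alternatives. Valsartan minus saline was 0.26 ± 0.23 (95% interval -0.21 to 0.74), and valsartan lay below the low dose (-0.73 ± 0.25, adjusted p = 0.0316). The other probes gave -0.63 and -0.84 against the low dose (adjusted p = 0.0679 and 0.0252), and the call on the brightest held in 8 of 13 alternatives.

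Hsp90ab1, the constitutive HSP90, went the other way. On its brightest probe the saline arrays 1 to 4 read 1.81, 2.33, 1.97 and 2.10 and arrays 5 to 8 read 0.78, 1.57, 1.1 and 2.05. Its other probe read 1.12, 1.70, 1.67 and 1.39, then 1.09, 1.72, 1.55 and 1.61. The gap of 0.75 to 1.02 between the otherwise near-equal saline arrays 1 and 5, 2 and 6, and 3 and 7 was thus present on the first probe only, and there Hsp90ab1 had the largest gap of the 9 genes in each pair. On the brightest probe the medians were 1.89 in saline, 2.01 at the low dose, 1.19 at the high dose and 0.96 under valsartan. The high dose minus saline was -0.59 ± 0.24 (limma adjusted p = 0.0405) and valsartan minus saline -0.72 ± 0.24 (adjusted p = 0.0132). The second probe gave -0.56 and -0.83 (adjusted p = 0.0102 and 0.000315), with 4 of 6 high-dose and 5 of 6 valsartan arrays below all saline arrays. Against the low dose, the high dose gave -0.77 ± 0.26 (adjusted p = 0.0344) and valsartan -0.90 ± 0.26 (adjusted p = 0.0133). On the second probe these were -0.45 (adjusted p = 0.0934, not passing) and -0.73 (adjusted p = 0.00776). The calls against the low dose on the first probe held in 9 of 17 and 10 of 13 alternatives. On that probe, within scan day 2, the high dose minus the low dose was -0.81, from 2 arrays each. The low dose minus saline was 0.18 ± 0.24 and -0.11 on the second probe, neither passing. The calls against saline on the first probe were lost in 7 of 17 alternatives at the high dose and 4 of 14 under valsartan, among them the slide as a random block.

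**Figure D3:**
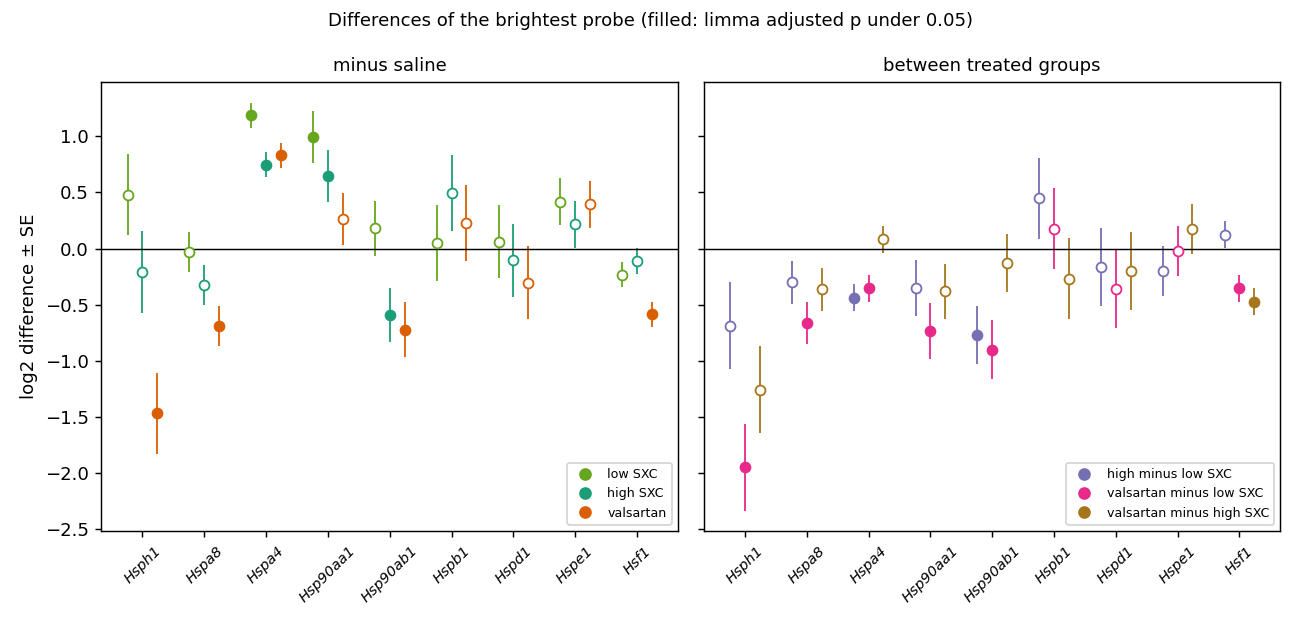
Log2 difference ± SE (vertical axis) of the brightest probe of each gene, on the left for each treated group minus saline and on the right between treated groups. Filled points passed limma's adjusted p of 0.05. Hspa4 lies above 0 in all 3 differences from saline, and all filled points on the right lie below 0.

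Hsf1, the transcription factor, was a dim probe whose saline levels were the tightest of the 9 genes, from -1.08 to -0.88. The low-dose arrays read -1.0, -1.64, -1.20, -1.21, -1.22 and -1.20, the high-dose arrays -1.32, -1.13, -1.25, -0.93, -1.06 and -1.05, and the valsartan arrays -1.95, -1.44, -1.57, -1.55, -1.54 and -1.54. Every valsartan array lay below every saline and high-dose array. Valsartan minus saline was -0.59 ± 0.11 (limma adjusted p = 8.62e-05, 1.5-fold lower) and kept its call in all 13 alternatives, from -0.82 to -0.40. Valsartan was also lower than the high dose (-0.47 ± 0.12, adjusted p = 0.0453) and the low dose (-0.35 ± 0.12, adjusted p = 0.0325). The call against the high dose held in 4 of 16 alternatives, and that against the low dose in 7 of 12. Within scan day 4, which holds all 6 valsartan arrays and 2 high-dose arrays, valsartan minus the high dose was -0.45. Those arrays include high-dose array 3 and valsartan array 1, on which Hsf1 was not well above background. The low and high doses gave -0.23 ± 0.11 and -0.11 ± 0.11 against saline (adjusted p = 0.102 and 0.405).

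Hspd1 and Hspe1, the chamber and the lid of the mitochondrial chaperonin, varied widely within saline, with an SD of 1.02 for Hspd1 and 0.61 for Hspe1. Hspd1 read 3.14, 3.59, 5.47, 3.38, 3.07, 3.59, 5.50 and 4.73 on saline arrays 1 to 8, and Hspe1 read 3.86, 3.86, 5.09, 3.92, 3.85, 3.91, 5.29 and 4.60. Both genes were highest on arrays 3, 7 and 8. The summed level of 4 brown fat markers was 8.14, 8.00 and 7.47 on those 3 arrays and 3.23 to 5.20 on the other 5, and that of 5 tested white fat markers 7.41, 7.31 and 6.65 against 3.08 to 5.29. Perivascular brown fat is rich in mitochondria, as background. The part of fat in the levels was not tested. In the treated groups Hspd1 spanned 3.4 to 4.67 and the brown fat sum 3.23 to 5.81. Hspd1 minus saline was 0.06 ± 0.33 at the low dose, -0.10 ± 0.33 at the high dose and -0.30 ± 0.33 under valsartan, none passing, and the intervals reached from -0.97 to 0.73.

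The probes of Hspe1 disagreed in sign. The brightest gave 0.42 ± 0.21, 0.22 ± 0.21 and 0.39 ± 0.21 for the low dose, the high dose and valsartan minus saline (limma adjusted p = 0.119, 0.387 and 0.111). The second gave -0.85, -0.86 and -0.83 (adjusted p = 0.00295, 0.00158 and 0.00226), and read 2.42, 2.36, 3.75, 2.45, 2.23, 2.35, 3.78 and 3.17 in saline against 1.49 to 2.32 in the treated groups. The probes had r = 0.96 on deviations from the group means over 26 arrays and r = 0.34 on the levels themselves. They thus followed the same arrays within groups and differed between groups, and no direction against saline can be given for Hspe1.

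**Figure D4:**
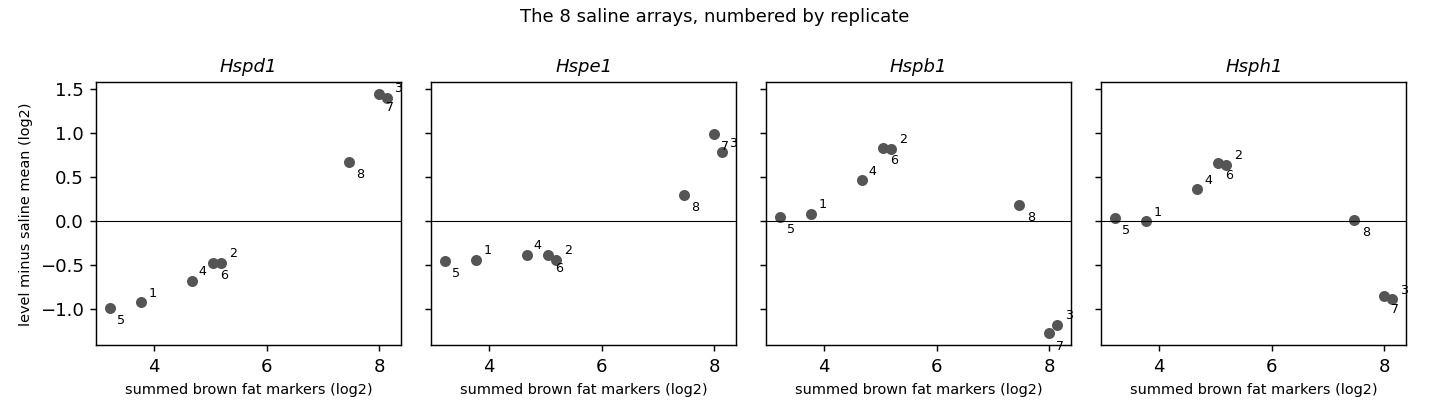
Level minus the saline mean (log2, vertical axis) of Hspd1, Hspe1, Hspb1 and Hsph1 on the 8 saline arrays, numbered by replicate, against the summed brown fat markers (log2, horizontal axis). Arrays 3 and 7 are highest for Hspd1 and Hspe1 and lowest for Hspb1 and Hsph1.

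Hspb1, the small heat shock protein, passed in no comparison. In saline it read 3.72, 4.46, 2.46, 4.10, 3.68, 4.47, 2.36 and 3.82. Its lowest arrays, 3 and 7, were those with the most fat marker signal and with the lowest summed smooth muscle markers, 6.62 and 5.74 against 6.99 to 7.72 on the others. At the low dose it ran from 2.75 to 4.27, at the high dose from 2.90 to 4.96 and under valsartan from 3.27 to 4.34. Its differences from saline were 0.05 ± 0.34, 0.50 ± 0.34 and 0.23 ± 0.34 (limma adjusted p = 0.923, 0.211 and 0.577). The 95% interval at the high dose, -0.19 to 1.19, leaves room for a difference of either sign. Without high-dose arrays 1 and 2, the high dose minus saline was 0.88 and passed (limma adjusted p = 0.0356).

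Members were also compared by how they deviated from their group means over the 26 arrays. These values are descriptions, since arrays share signal strength, tissue makeup and the near-equal saline pairs. Over the 36 pairs of genes, r ranged from -0.41 to 0.95 with a median of 0.16. The highest was Hspd1 with Hspe1 (0.95), followed by Hsph1 with Hsp90aa1 (0.86), Hsph1 with Hspa8 (0.84) and Hspa8 with Hsp90aa1 (0.78). Over the 18 treated arrays alone the values were 0.87, 0.83, 0.84 and 0.80. Hspa4 had r of 0.56 with Hsp90aa1 and 0.51 with Hspa8, and Hsp90ab1 had r of 0.18 with Hsp90aa1 and 0.41 with Hsph1. Hspd1 and Hspe1 had r of -0.21 to 0.04 with Hsph1 and Hspa8 over all arrays, and 0.31 to 0.46 over the treated arrays. With Hsp90aa1, Hspd1 and Hspe1 had r of -0.20 and -0.09 over all arrays, and 0.67 and 0.82 over the treated arrays. Hspb1 had r of -0.41 with both Hspd1 and Hspe1 over all arrays, and 0.24 and 0.25 over the treated arrays.

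**Figure D5:**
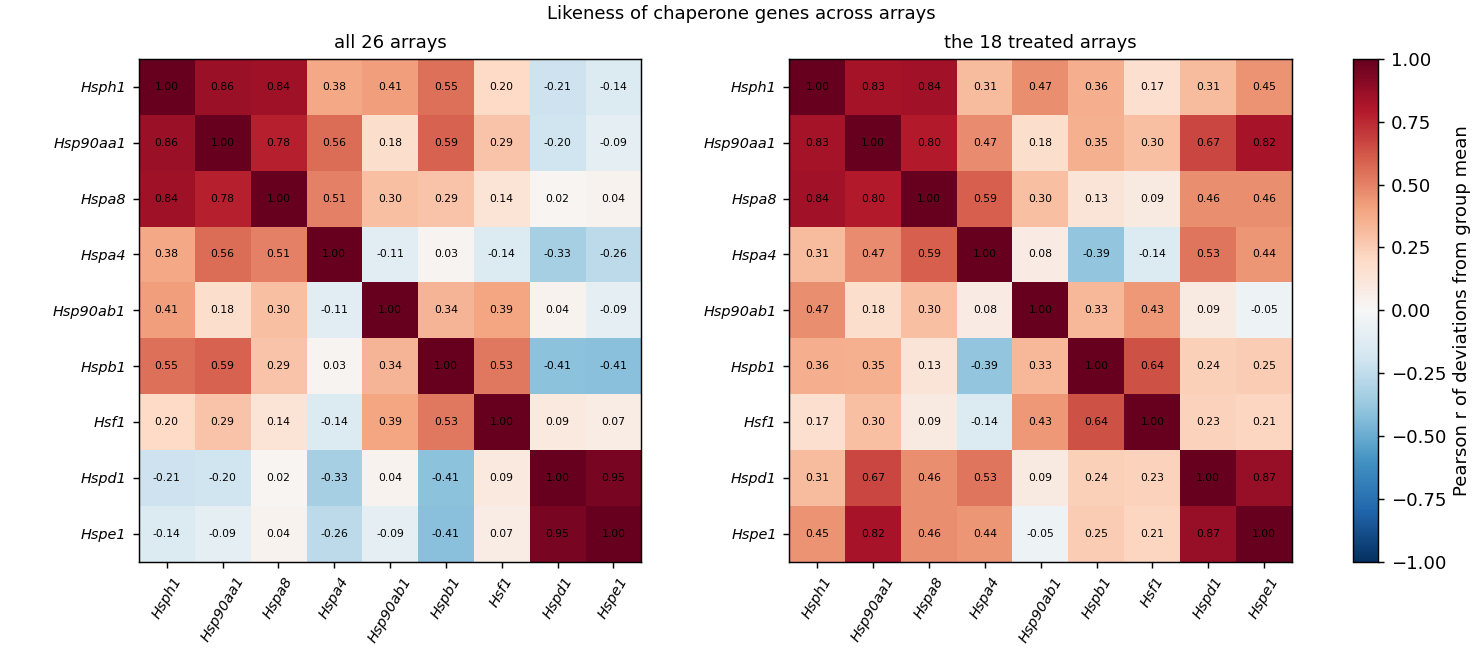
Pearson r of deviations from the group mean between the 9 genes, over all 26 arrays on the left and over the 18 treated arrays on the right. Hsph1, Hsp90aa1 and Hspa8 form a block of high values in both panels, and the negative values of Hspb1 with Hspd1 and Hspe1 are seen on the left.

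Outside the set, 4198 other genes well above background on all arrays were ranked by the same measure. Among the nearest to Hsph1 were Dynll1 (r = 0.85), Lyz2 (0.80), Itpr1 (0.79) and Hook3 (0.77). Nearest to Hspb1 were Hbe2 (0.91), Padi1 (0.89), Or5h25d (0.88), Mtnr1a (0.88) and Pfkl (0.88). Nearest to Hsf1 were Sdsl (0.73), Prelid1 (0.73), Sncb (0.71), Irf3 (0.71) and Ube2m (0.70). Over the treated arrays alone the values of these named genes ran from 0.71 to 0.89.

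The wider folding machinery was described from lists of 72 genes in 8 classes, of which 68 were tested. Against saline, 14 rose and 28 fell at the high dose, 18 rose and 23 fell at the low dose, and 14 rose and 29 fell under valsartan. Of all probes, 35.7% were called higher and 21.4% lower at the high dose, 22.5% and 17.1% at the low dose, and 33.2% and 25.2% under valsartan. The median differences were -0.27, -0.12 and -0.36, beside medians of all probes in the same scaling of 0.25, 0.09 and 0.19. Between treated groups 3 rose and 8 fell from the low to the high dose, 6 rose and 12 fell from the low dose to valsartan, and 2 rose and 0 fell from the high dose to valsartan. In the same order, 16.8%, 13.6% and 0.265% of all probes were called higher and 5.41%, 11.5% and 1.1% lower.

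The J-domain (DNAJ) co-chaperones hand clients to HSP70. Of 14 tested, 0 rose in any of the comparisons with saline, and 9 fell at the high dose, 6 at the low dose and 8 under valsartan (limma), where 21.4%, 17.1% and 25.2% of all probes were called lower. At an unadjusted p under 0.05, 0, 1 and 1 were higher. Dnajc3, an inhibitor of a stress kinase in the endoplasmic reticulum, fell by 1.60, 1.28 and 1.42 at the high dose, the low dose and under valsartan. Dnajb11, a co-chaperone in the same compartment, fell by 1.29, 1.06 and 1.17. Dnajc3 ran from -0.66 to -0.43 in saline and reached at most -1.40 on a treated array, and Dnajb11 ran from -0.24 to -0.05 and reached at most -0.84. Dnajc5, which serves vesicle release, fell by 1.26, 0.77 and 1.36, but was above background on only 4 of 6 high-dose and 2 of 6 valsartan arrays. With normexp background correction 1 member rose at the high dose and 1 under valsartan.

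Of the 5 HSP70 and HSP90 genes of the endoplasmic reticulum and mitochondria, 1 rose and 3 fell at each SXC dose, and 1 rose and 4 fell under valsartan. For the high dose, the low dose and valsartan, 35.7%, 22.5% and 33.2% of all probes were called higher. Called lower were 21.4%, 17.1% and 25.2%. Hspa9, the mitochondrial HSP70, fell by 1.62 at the high dose, 1.49 at the low dose and 1.94 under valsartan (limma adjusted p = 1.39e-06, 8.68e-06 and 8.88e-08). Like Hspd1, it was highest on saline arrays 3, 7 and 8 (3.44, 3.35 and 2.79, against 1.84 to 2.08 on the others), yet all treated arrays, at 0.13 to 1.19, lay below all saline arrays. Hsp90b1, the HSP90 of the endoplasmic reticulum, fell by 1.06, 0.83 and 1.08. Hyou1, the exchange factor of that compartment, rose by 1.48, 1.87 and 1.72. Its saline arrays read 2.40, 2.35, 1.94, 2.37, -0.70, -0.23, -0.52 and 2.12, so arrays 5, 6 and 7 stood apart from their near-equal partners 1, 2 and 3 as they did on the first Hsp90ab1 probe.

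The 8 subunits of the cytosolic chaperonin TRiC, which folds actin and tubulin, divided by sign, and the direction of the fallers held in every alternative run for this class. Cct5, Cct2 and Cct4 fell in all 3 comparisons with saline, as did Cct7, which is named after its values were seen. Cct5 fell by 1.96, 1.56 and 2.01 at the high dose, the low dose and under valsartan, Cct2 by 1.67, 1.02 and 1.37, and Cct4 by 1.57, 0.99 and 1.46. Cct7 fell by 1.39, 1.42 and 1.22. In the opposite direction, 3 subunits rose at the high dose (Tcp1, Cct3 and Cct8), 4 at the low dose (these and Cct6a) and 2 under valsartan (Tcp1 and Cct8), also named after their values were seen. In the same order, 35.7%, 22.5% and 33.2% of all probes were called higher and 21.4%, 17.1% and 25.2% lower. Cct8 rose by 0.61, 1.07 and 0.85. Cct6a read -0.77, 0.06 and -0.36 on saline arrays 5, 6 and 7, against 2.01 to 2.11 on the other saline arrays and 2.06 to 2.36 at the low dose. Its low-dose call was lost with quantile normalization (adjusted p = 0.0695), with the authors' values (0.0683) and with slide as a random block (0.0675), and its second probe gave 0.12 (0.776). A second probe of Tcp1 gave -0.25, 0.12 and -0.11, none passing, and with normexp 0 subunits rose at the high dose. With gain as a block, Cct2 and Cct4 were not called under valsartan.

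Of the 18 HSP70 and HSP90 co-chaperones, 2 rose and 7 fell at the high dose, 6 rose and 6 fell at the low dose, and 2 rose and 7 fell under valsartan. Among all probes, 35.7%, 22.5% and 33.2% were called higher and 21.4%, 17.1% and 25.2% lower, in that order. Fkbp5, a glucocorticoid-induced HSP90 partner, ran from 2.21 to 3.74 in saline, -0.78 to 2.28 at the low dose, 0.12 to 1.73 at the high dose and 1.02 to 2.67 under valsartan. It fell by 2.34 at the low and 2.11 at the high dose (limma adjusted p = 2.48e-05 and 4.51e-05), and valsartan minus saline was -0.78 (adjusted p = 0.0826). Grpel1, the exchange factor of mitochondrial HSP70, fell by 1.51, 1.31 and 1.38 at the high dose, the low dose and under valsartan. It too was highest on saline arrays 3, 7 and 8. Bag4 fell by 1.64 at the low and 1.23 at the high dose, from a probe above background on 2 of 6 high-dose and 1 of 6 valsartan arrays.

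In the remaining classes, Hsf2, a relative of Hsf1, rose by 0.89, 0.87 and 0.81 at the high dose, the low dose and under valsartan, with every treated array (0.47 to 0.84) above every saline array (-0.48 to 0.14). Hsbp1, which binds and restrains Hsf1, fell by 0.43, 0.42 and 0.70. The call was lost at the low dose with normexp, the authors' values, the percentile over probes, slide as a random block and without saline arrays 4 and 8. It was lost at the high dose with slide or gain as a block and without those saline arrays, and under valsartan with gain as a block. Of the 3 genes of that class, 1 rose and 1 fell in each comparison with saline. Among 5 tested cytosolic HSP70 genes, 2 rose at the high dose, 1 at the low dose and 2 under valsartan, and 1 fell in each. Beside both classes, 35.7%, 22.5% and 33.2% of all probes were called higher and 21.4%, 17.1% and 25.2% lower, in that order. Hspa14 rose by 0.58, 0.74 and 0.67, and Hspa2 gave -0.54, -0.69 and -0.57, passing at the low dose and under valsartan. Hspa1l rose by 1.43 at the high dose from a dim probe, above background on 3 of 6 of those arrays. It was also 1 of the 2 counted as risen under valsartan, at 0.99, although above background on 0 of 6 valsartan arrays. With gain as a block, that difference turned to -0.35 and was not called.

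Among the 5 tested small heat shock proteins, Hspb7, a muscle protein, rose by 2.88 at the high dose, 1.08 at the low dose and 2.38 under valsartan. At the low dose 2 arrays (1 and 6, at 2.68 and 2.64) reached the high-dose range of 2.34 to 3.14, while the other 4 ran from -0.12 to 0.38, within the saline range of -1.09 to 0.89. Those 2 arrays were the low-dose arrays scanned on the same day as high-dose arrays 1 and 2, and the part of the scan day was not tested. Against saline, Hspb6 passed under valsartan only, at -0.74 (limma adjusted p = 0.00237), from a probe above background on 4 of 6 valsartan arrays, and the call was lost with normexp and with gain as a block. Of 10 genes of the unfolded protein response, 4 rose and 3 fell at the high dose, 4 rose and 2 fell at the low dose, and 5 rose and 3 fell under valsartan. The shares of all probes were 35.7%, 22.5% and 33.2% called higher and 21.4%, 17.1% and 25.2% lower, in that order. With normexp, 1 rose and 3 fell at the high dose, 3 rose and 2 fell at the low dose, and 2 rose and 3 fell under valsartan. Xbp1, its transcription factor, rose by 0.69, 1.28 and 0.55, Creld2 rose by 1.56 at the high dose and 1.30 under valsartan and gave -0.14 at the low dose, and Sdf2l1 fell by 0.97, 0.68 and 1.55. With gain as a block, Creld2 under valsartan gave -0.04 and was not called.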

How the data were processed

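RNA of rat thoracic aorta was measured on 26 one-colour Agilent arrays (saline 8, SXC low dose 6, SXC high dose 6, valsartan 6). The authors processed the array scans with Agilent Feature Extraction 11.0.1.1, per the submitters' processing notes, and the deposited files hold each spot's processed signal as an intensity, background-subtracted per the file headers. The authors' deposited table of log2 values (column medians 5.75 to 5.76) served as an alternative, and each of its columns correlated best with its own array. Its normalization is not stated in the labels or headers. The number of arrays limits the precision.

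Control spots and spots with outlier flags were left out, the log2 signals of a probe's spots were averaged, and the 75th percentile of the array's spots was subtracted. Probes were named through RefSeq accessions and the GRCr8 gene table (18005 of 30367 with 1 symbol, 0 with several, 12362 without one here). Of these, 23744 probes well above background on at least 6 arrays were fitted over all 26 arrays with limma 3.58.1 (R 4.3.3, trend), with Benjamini-Hochberg adjustment per comparison. The pipeline was tested on simulated data. The p-values measure the spread between these arrays, and whether the near-equal saline arrays come from separate rats is not stated in the labels.

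The members and lists were chosen with earlier results of these data known. Named were all members with every probe, from the wider lists at most 3 called genes per class with the largest mean absolute difference from saline, and the 5 genes most like each of Hsph1, Hspb1 and Hsf1, of which 1 is not reported here. Alternatives were normexp background correction (offset 50, on median signals, since the files hold no mean signal), quantile normalization, the authors' values, the filter on dim probes, the mean over probes, slide, scan day, detector gain or replicate number as blocks, subsets of arrays, and the fit on 2 groups only. Those on single scan days, on 1 gain, without high-dose array 3 and with other percentiles were chosen after seeing the data.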

Additional observations from a re-analysis of the deposited data

Results flagged for a closer look

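Among the 36 sets of arrays examined (9 genes in 4 groups), 2 held an array far from the others, and chance alone marks about 1 in 20 such sets. Both concern Hsf1. On low-dose array 2 its level was -1.64, and the nearest other low-dose array read -1.22. On valsartan array 1 it was -1.95, and the nearest other valsartan array read -1.57; on that array Hsf1 was not well above background. The cause was not tested.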

How the results depend on the processing

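With saline averaged into 3 values, or the slide as a random block (correlation 0.21), 1 member was called at the high dose against saline, in place of 3. Under valsartan against saline, 2 members were called with detector gain as a block, in place of 5. Over probes well above background on all arrays 3 were called, since that run did not test Hsph1 and Hsf1. All 42 values of that run kept direction and side of the threshold. From the low to the high dose, 4 were called with normexp, 1 without high-dose array 3, and 0 with quantile normalization, the authors' values, the slide, scan day or gain as a block, scan day 2 alone or higher-gain arrays alone, in place of 2. From the low dose to valsartan, 3 were called with quantile normalization or the authors' values, 1 with the slide and 0 with scan day or gain as a block, in place of 6. From the high dose to valsartan, 2 were called without high-dose array 3 and 0 with normexp, quantile normalization, the authors' values, no filter, slide or scan day as a block, scan day 4 alone, lower-gain arrays alone, the percentile over probes or of the file header, or the fit on 2 groups only, in place of 1. Over probes above background on all arrays 0 were called as well, where Hsf1, the member called here, was not tested. Hspa4, valsartan minus the low dose, turned to 0.083 with scan day and 0.090 with gain as a block. Apart from the run that left out Hsph1 and Hsf1, the cause of these changes was not tested. Scan day as a block gives no value against saline. Of the other values of single genes, 696 kept direction and side of the threshold, 69 lost and 14 gained a call, and 44 that passed in neither setting changed sign.

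The replicate numbers did not pair the arrays: of 36 same-numbered pairs, 6 had a correlation over 0.1 (range -0.365 to 0.277). With the replicate block, 3, 3 and 6 members were called against saline at the high dose, the low dose and under valsartan, 2 from the low to the high dose, 5 from the low dose to valsartan and 0 from the high dose to valsartan.

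The scaling also set the share of higher calls among all calls. From the low to the high dose it was 75.7%, against 44.9% with quantile normalization, 59.2% with the percentile over probes and 63.5% with normexp. From the low dose to valsartan it was 54.1%, against 28.3% and, with normexp, 73.9%. From the high dose to valsartan it was 19.4%, against 80.0% with normexp, and under valsartan against saline normexp gave 72.3%. Signal over background limits Hsf1 and Hsph1, which missed it on high-dose array 3, and Hsf1 also on valsartan array 1.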
